A study of Rattus norvegicus with 24 samples.

Results

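Liver RNA of 24 female rats (Sprague-Dawley, F2 generation, adult) was measured on whole-transcript microarrays, 1 array per animal, and 10 genes that make glucose in the liver or carry the insulin signal there are described here. The genes were chosen by name (Pck1, Slc37a4, Fbp1, Pcx, Ppargc1a, Foxo1, Insr, Irs1, Irs2 and Slc2a2), and a probe set was taken where the platform annotation gave that symbol and no other. Each gene had 1 probe set, so 10 of the 20917 probe sets on the array were used. All 10 were bright enough to pass the filter on low values, among 15687 in all. Pcx carried its shorter symbol Pc in the annotation and was matched through the synonym. The females differed in 2 diets. Their F0 founders, labelled grandpaternal, had eaten chow (the chow line) or a high-fat diet, HFD (the HFD line), and the adult females were in turn given chow or an HFD, listed as 42/45% energy from fat, over 12 weeks. Chow-line females on chow (GpatCD-CD) gave 7 arrays, chow-line females on the HFD (GpatCD-HF) 6, HFD-line females on chow (GpatHF-CD) 6 and HFD-line females on the HFD (GpatHF-HF) 5. The exact age, the litters and the fathers are not given in the labels, so each array was taken as an independent animal and the p-values measure only the spread between these animals.

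As background, the liver keeps blood glucose up during a fast by building new glucose from lactate, alanine and glycerol, and insulin shuts that route down after a meal. Glucagon, through cAMP and the factor CREB, and glucocorticoids switch the gluconeogenic genes on. Insulin acts through its receptor, the adaptors IRS1 and IRS2 and the kinase AKT, which keeps the transcription factor FOXO1 out of the nucleus and thereby lowers transcription of the same genes. In livers that respond poorly to insulin, glucose output stays high although insulin is present, which is why these genes are often measured in high-fat feeding.

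The promoters were searched for letters that factors of these signals are known to bind. RefSeq (GRCr8) gave a promoter window, 250 bases before to 50 after the start site, for 8 of the 10 genes. The 250 bases before the start are printed 5′ to 3′ on the gene's strand for Pck1, the gene that met the test below, for Ppargc1a, the cAMP-driven coactivator, and for Insr, the 1 gene of the 8 with a forkhead match. Capitals mark the matches searched for, on both strands: TGACGTCA (the cAMP response element), TGACG (its short form, which lies inside the whole element and also counts there) and GTAAACA (the forkhead site bound by FOXO factors).

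Pck1, chr3:182348322-182348571, plus strand: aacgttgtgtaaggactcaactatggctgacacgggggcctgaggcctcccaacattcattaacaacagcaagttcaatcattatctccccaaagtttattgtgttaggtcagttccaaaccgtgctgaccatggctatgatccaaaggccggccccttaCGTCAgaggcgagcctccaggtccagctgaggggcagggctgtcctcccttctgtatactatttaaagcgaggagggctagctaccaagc
Ppargc1a, chr14:63634058-63634307, plus strand: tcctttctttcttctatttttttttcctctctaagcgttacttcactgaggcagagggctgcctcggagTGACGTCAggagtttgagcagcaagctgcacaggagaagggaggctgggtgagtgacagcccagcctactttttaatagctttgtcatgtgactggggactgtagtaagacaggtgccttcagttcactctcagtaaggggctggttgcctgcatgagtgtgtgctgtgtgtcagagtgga
Insr, chr12:6128804-6129053, minus strand: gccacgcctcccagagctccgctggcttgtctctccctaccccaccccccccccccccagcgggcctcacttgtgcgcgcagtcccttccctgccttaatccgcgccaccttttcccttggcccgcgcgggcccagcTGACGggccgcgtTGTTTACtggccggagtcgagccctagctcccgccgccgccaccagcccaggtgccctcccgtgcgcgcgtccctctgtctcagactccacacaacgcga

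The short form occurred in the windows of 4 of the 8 genes (Pck1, Slc37a4, Ppargc1a and Insr) and in 21.2% of all 33469 RefSeq promoters of the same length. In Pck1 it lay 90 bases before the start on the opposite strand and reads CGTCA in the printed line. Ppargc1a alone among the 8 held the whole element, 181 bases before its start, against 1.83% of all promoters. Insr held the forkhead letters 100 bases before its start on the opposite strand, read as TGTTTAC, against 3.78% of all promoters. The insulin response core CAAAACAA (2.23% of all promoters) and the full glucocorticoid response element (0.0149%) occurred at 0 of the 8 genes, and TGTTCT, the glucocorticoid element's short form (20.7%), at Slc2a2 only. Both strands were searched for each. A match describes letters in these windows and is not a site shown to be bound.

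The tissue labels were checked first, because a protocol text spoke of gonadal fat while titles and tissue labels say liver. Hepatocyte genes were bright on every array (Alb, albumin, at 9770 to 13114 deposited intensity units). The adipocyte genes Adipoq (36.7 to 82.3), Lep (29.3 to 54.3) and Plin1 (49.2 to 101) were dim. Of the other adipocyte markers listed, Retn and Cfd had medians of 59.8 and 116.4 units over the arrays. Cidec, of the same list, was bright (median 1430 units), so the adipocyte markers were not dim throughout. No 2 arrays held identical values. The HFD-line arrays on the HFD were dimmer as a whole, with a mean array median of 7.83 ± 0.08 on the log2 scale (SD, n = 5) against means of 7.96 ± 0.15, 7.96 ± 0.10 and 7.96 ± 0.07 in the other groups (n = 7, 6 and 6: chow line on chow, chow line on the HFD and HFD line on chow). Across all probe sets tested, the median difference was -0.09 for own diet in the HFD line, -0.10 for grandpaternal diet on the HFD and -0.10 for the interaction, and members are read against those medians. Arrays 21, 22, 24 and 25 stood apart from the rest of their groups in earlier results of these data, and values without these 4 are given beside the member differences they moved most. All levels below are log2(intensity + 16), all differences are on that scale with their standard error, and every adjusted p comes from limma's two-sided test, adjusted by the Benjamini-Hochberg method over all 15687 probe sets. In bulk liver, fewer cells of a type and less RNA per cell cannot be told apart.

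Pck1 fell with the animals' own HFD, and it was the only member of the 10 that met the test in any of the 7 comparisons. Pck1 (probe set 10842596) encodes cytosolic phosphoenolpyruvate carboxykinase, which commits oxaloacetate to glucose synthesis. In chow-line females on chow its lowest, median and highest levels were 12.03, 12.59 and 12.81, and in chow-line females on the HFD they were 11.52, 12.17 and 12.69. In HFD-line females on chow they were 11.91, 12.58 and 12.72, and the 5 HFD-line arrays on the HFD read 12.14, 12.13, 11.44, 12.05 and 11.92. The HFD groups reached lower than the chow groups, yet the ranges overlapped in both lines. Array 30 on chow in the chow line and array 39 on chow in the HFD line lay below the others of their groups. Averaged over both lines, own HFD minus chow was -0.49 ± 0.13 (95% interval -0.75 to -0.23), a 1.40-fold lower intensity, with an adjusted p of 0.0393. Of all probe sets, 1.63% were called lower in this comparison and 1.99% in either direction. Within the lines the difference was -0.42 ± 0.17 in the chow line (adjusted p = 0.453) and -0.56 ± 0.19 in the HFD line (adjusted p = 0.153), and in the latter no HFD array reached the mean of the chow arrays. The interaction of the diets, the second of these minus the first, was -0.14 ± 0.25 (95% interval -0.65 to 0.38), and it read 0.08 after quantile normalization. The call stood near the threshold. Without arrays 21, 22, 24 and 25 it held (-0.56, adjusted p = 0.0323). It was lost when each array was centred on its median (-0.43, adjusted p = 0.0545) and in 16 of the 24 fits that left 1 array out, namely without array 25, 26, 27, 28 or 29 (chow line, chow), 31, 34 or 35 (chow line, HFD), 37, 38, 40, 41 or 42 (HFD line, chow) or 45, 46 or 47 (HFD line, HFD). Over these 24 fits the difference stayed between -0.55 and -0.43 and the adjusted p between 0.0136 and 0.0916.

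**Figure D1:**
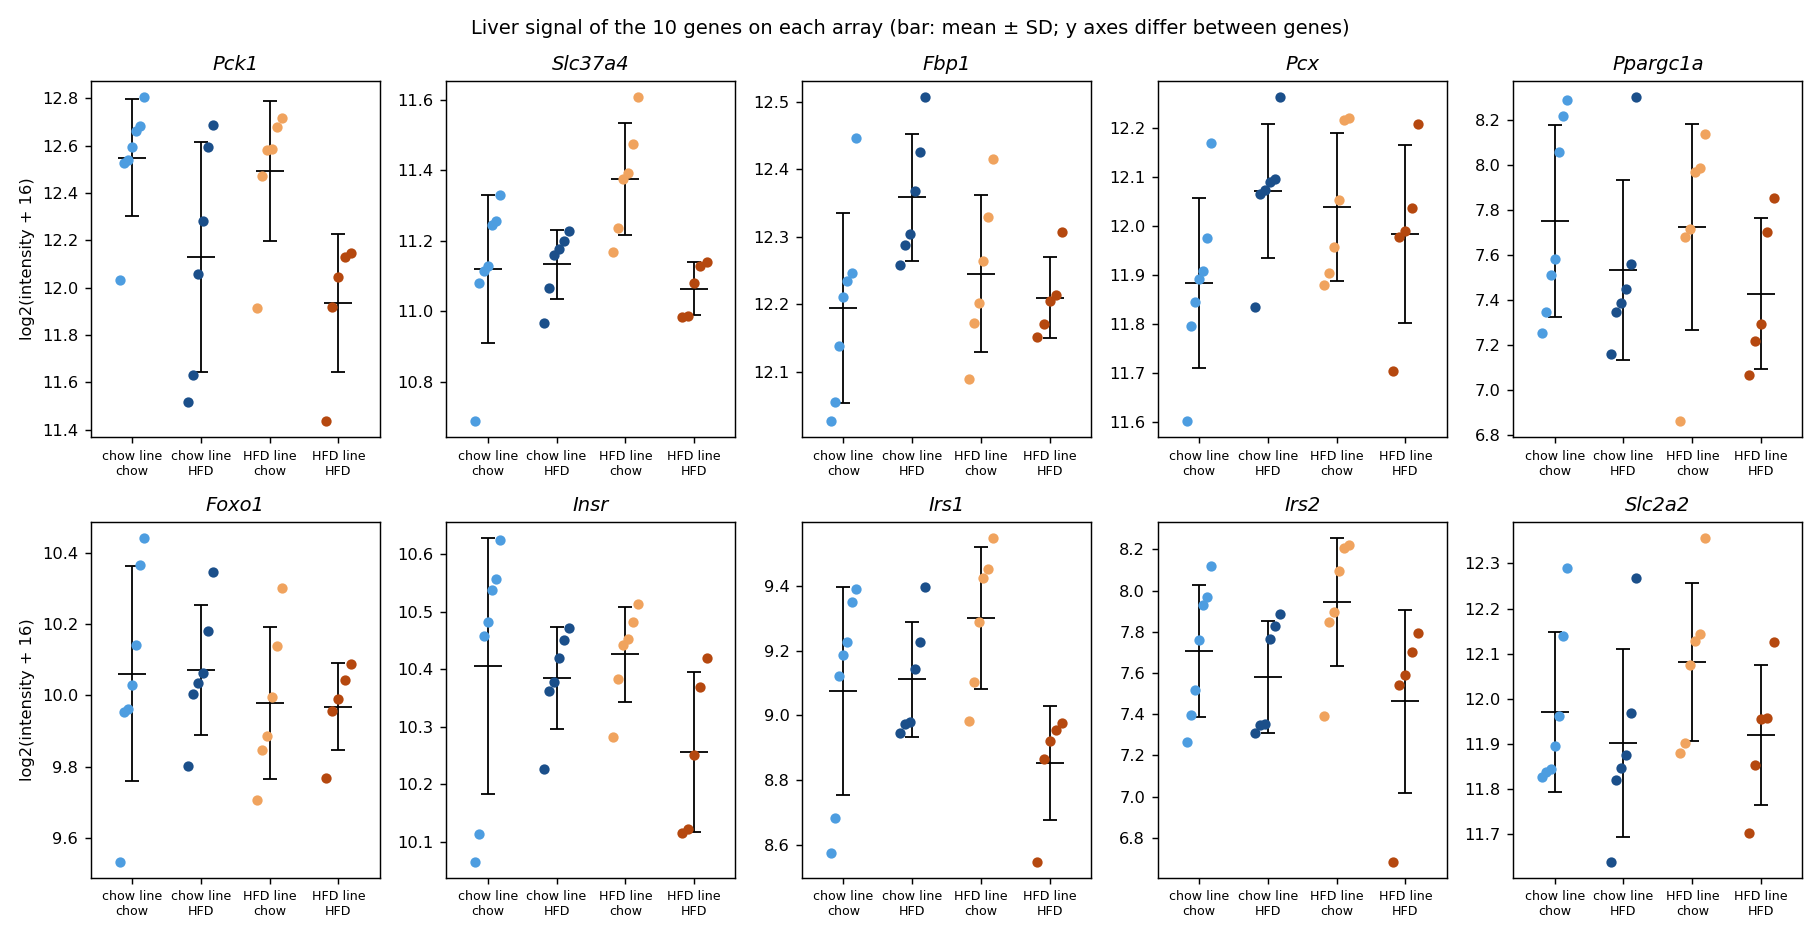
Level of each of the 10 genes on each of the 24 arrays, as log2(deposited intensity + 16), by grandpaternal line and own diet (points: arrays; bars: mean ± SD; y axes differ between genes). The Pck1 means lie lower on the HFD in both lines (12.55 and 12.13; 12.49 and 11.94), while Slc37a4 and Irs1 in the HFD line show 5 HFD arrays that all lie below the 6 chow arrays, an order that is lost when arrays are centred or quantile normalized.

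Pcx and Fbp1, the enzymes on either side of Pck1 in the route, did not meet the test in any comparison. Pcx (probe set 10712867) encodes pyruvate carboxylase, which makes the oxaloacetate that Pck1 uses. Its group means were 11.88 ± 0.17 (SD, n = 7) in the chow line on chow, 12.07 ± 0.14 (n = 6) on the HFD, 12.04 ± 0.15 (n = 6) in the HFD line on chow and 11.98 ± 0.18 (n = 5) on the HFD. Its difference by own diet was 0.19 ± 0.09 in the chow line, with 5 of 6 HFD arrays above the chow mean, and -0.06 ± 0.10 in the HFD line, with adjusted p-values of 0.551 and 0.796. The average over both lines was 0.07 ± 0.07 (95% interval -0.07 to 0.20) and read 0.12 with arrays centred, again without meeting the test. The sign in the HFD line was not stable: Pcx read 0.07 with arrays centred and 0.01 without arrays 21, 22, 24 and 25.

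Fbp1 (probe set 10793579) encodes fructose-1,6-bisphosphatase, the enzyme that opposes phosphofructokinase. Its lowest, median and highest levels were 12.03, 12.21 and 12.45 in the chow line on chow and 12.26, 12.34 and 12.51 on the HFD. On chow in the HFD line they were 12.09, 12.23 and 12.41, and the 5 HFD-line arrays on the HFD read 12.15, 12.17, 12.21, 12.20 and 12.31. In the chow line all 6 HFD arrays lay above the chow mean, although the ranges overlapped, and in the HFD line the groups covered nearly the same levels. The own-diet difference was 0.16 ± 0.07 in the chow line (adjusted p = 0.455), -0.04 ± 0.07 in the HFD line (adjusted p = 0.827) and 0.06 ± 0.05 on average (95% interval -0.04 to 0.17). With arrays centred the average was 0.12, with an adjusted p of 0.0752. The HFD-line value became 0.09 with centred arrays and 0.06 after quantile normalization.

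The last steps of glucose release were measured through a pair of transporters. Slc37a4 (probe set 10909509) encodes the carrier that brings glucose-6-phosphate to the phosphatase inside the endoplasmic reticulum. Its lowest, median and highest levels were 10.69, 11.13 and 11.33 in the chow line on chow, 10.97, 11.17 and 11.23 on the HFD, and 11.17, 11.38 and 11.61 in the HFD line on chow. The 5 HFD-line arrays on the HFD read 10.99, 11.08, 10.98, 11.13 and 11.14, all below the lowest chow array of that line. On chow, all 6 HFD-line arrays lay above the chow-line mean. By own diet the difference was 0.01 ± 0.09 in the chow line and -0.31 ± 0.09 in the HFD line, a 1.24-fold lower intensity with an adjusted p of 0.111. By grandpaternal diet it was 0.26 ± 0.09 on chow (adjusted p = 0.457). The HFD-line ranges overlapped once arrays were centred or quantile normalized, where the own-diet difference was -0.19 and -0.16. Without arrays 21, 22, 24 and 25 the HFD-line difference as deposited was -0.29, and the grandpaternal difference on chow 0.16. Without array 21, a chow-line array outside this comparison that enters the shared spread, its adjusted p was 0.0487 and Slc37a4 became the 1 member called in the HFD line.

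Slc2a2 (probe set 10814630) encodes GLUT2, the main glucose transporter of the hepatocyte membrane. Its levels ran from 11.83 to 12.29 in the chow line on chow, 11.64 to 12.27 on the HFD, 11.88 to 12.36 in the HFD line on chow and 11.70 to 12.13 on the HFD, and all 4 ranges overlapped. Own HFD minus chow was -0.07 ± 0.10 in the chow line, -0.16 ± 0.11 in the HFD line and -0.11 ± 0.07 on average (95% interval -0.26 to 0.03, adjusted p = 0.523). Its size depended on the scaling. The HFD-line difference was -0.039 with arrays centred and -0.031 after quantile normalization, the chow-line difference -0.14 after quantile normalization and the average -0.057 with arrays centred.

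Neither transcriptional regulator among the 10 genes met the test in any comparison. Ppargc1a (probe set 10772986) encodes PGC-1alpha, a coactivator that glucagon induces and that drives Pck1 together with other factors. It varied widely within groups, from 7.25 to 8.29 and 7.16 to 8.30 in the chow line on chow and on the HFD, from 6.86 to 8.13 in the HFD line on chow and from 7.07 to 7.85 on the HFD. Against that spread its own-diet difference of -0.26 ± 0.15 (95% interval -0.57 to 0.06, adjusted p = 0.495) did not meet the test, nor did -0.22 ± 0.21 in the chow line or -0.30 ± 0.23 in the HFD line. Single arrays moved it: the chow-line value was -0.37 without array 22 and -0.13, -0.14 and -0.14 without array 25, 26 or 35, and the HFD-line value was -0.47 without array 37. Without arrays 21, 22, 24 and 25 the average was -0.36 (adjusted p = 0.259), with -0.31 in the chow line and -0.40 in the HFD line, and with arrays centred the HFD-line value was -0.18. Foxo1 (probe set 10815317) encodes the forkhead factor that insulin restrains. Its group means were 10.06 ± 0.30 (SD, n = 7) in chow-line and 9.98 ± 0.21 (n = 6) in HFD-line females fed chow, and 10.07 ± 0.18 (n = 6) and 9.97 ± 0.12 (n = 5) in those fed the HFD. The 95% interval of its averaged own-diet difference, -0.18 to 0.18, was centred near 0. RNA level says nothing of where the FOXO1 protein lay in the cell, which is how insulin mainly controls it.

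The insulin receptor gene Insr (probe set 10756229) had group means of 10.41 ± 0.22 (SD, n = 7) and 10.38 ± 0.09 (n = 6) in the chow line on chow and on the HFD, and 10.43 ± 0.08 (n = 6) and 10.26 ± 0.14 (n = 5) in the HFD line. Its own-diet difference in the HFD line was -0.17 ± 0.10 (adjusted p = 0.385), no HFD array reached the mean of the chow arrays, and the difference shrank to -0.05 once arrays were centred. Averaged over lines it was -0.10 ± 0.07 (95% interval -0.23 to 0.04).

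Irs1 (probe set 10929390) encodes an adaptor that the active receptor phosphorylates and that recruits phosphatidylinositol 3-kinase. Its lowest, median and highest levels were 8.57, 9.19 and 9.39 in the chow line on chow, 8.95, 9.06 and 9.40 on the HFD, and 8.98, 9.36 and 9.55 in the HFD line on chow. The 5 HFD-line arrays on the HFD read 8.55, 8.98, 8.86, 8.95 and 8.92, the lowest of them array 24, and all lay just below the lowest chow array of the line. The own-diet difference was 0.04 ± 0.13 in the chow line and -0.45 ± 0.14 in the HFD line (1.36-fold lower, 95% interval -0.74 to -0.16, adjusted p = 0.124). Its interaction term, -0.48 ± 0.19, was the largest in size of the 10 members and had an adjusted p of 0.436. The HFD-line ranges overlapped after centring or quantile normalization, where the difference was -0.33 and -0.31. Without arrays 21, 22, 24 and 25 it was -0.37 (adjusted p = 0.210).

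Irs2 (probe set 10789653) encodes the second hepatic adaptor, whose gene FOXO1 activates during fasting. Its lowest, median and highest levels were 7.26, 7.76 and 8.12 in the chow line on chow, 7.31, 7.56 and 7.88 on the HFD, and 7.39, 7.996 and 8.22 in the HFD line on chow. The 5 HFD-line arrays on the HFD read 6.68, 7.54, 7.59, 7.79 and 7.70. Array 24 alone gave the value of 6.68, and the other 4 overlapped with the chow arrays. The own-diet difference was -0.13 ± 0.17 in the chow line, -0.48 ± 0.19 in the HFD line (adjusted p = 0.221) and -0.30 ± 0.13 on average (adjusted p = 0.272). Without array 24 the HFD-line difference was -0.29, and it was the same without arrays 21, 22, 24 and 25.

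**Figure D2:**
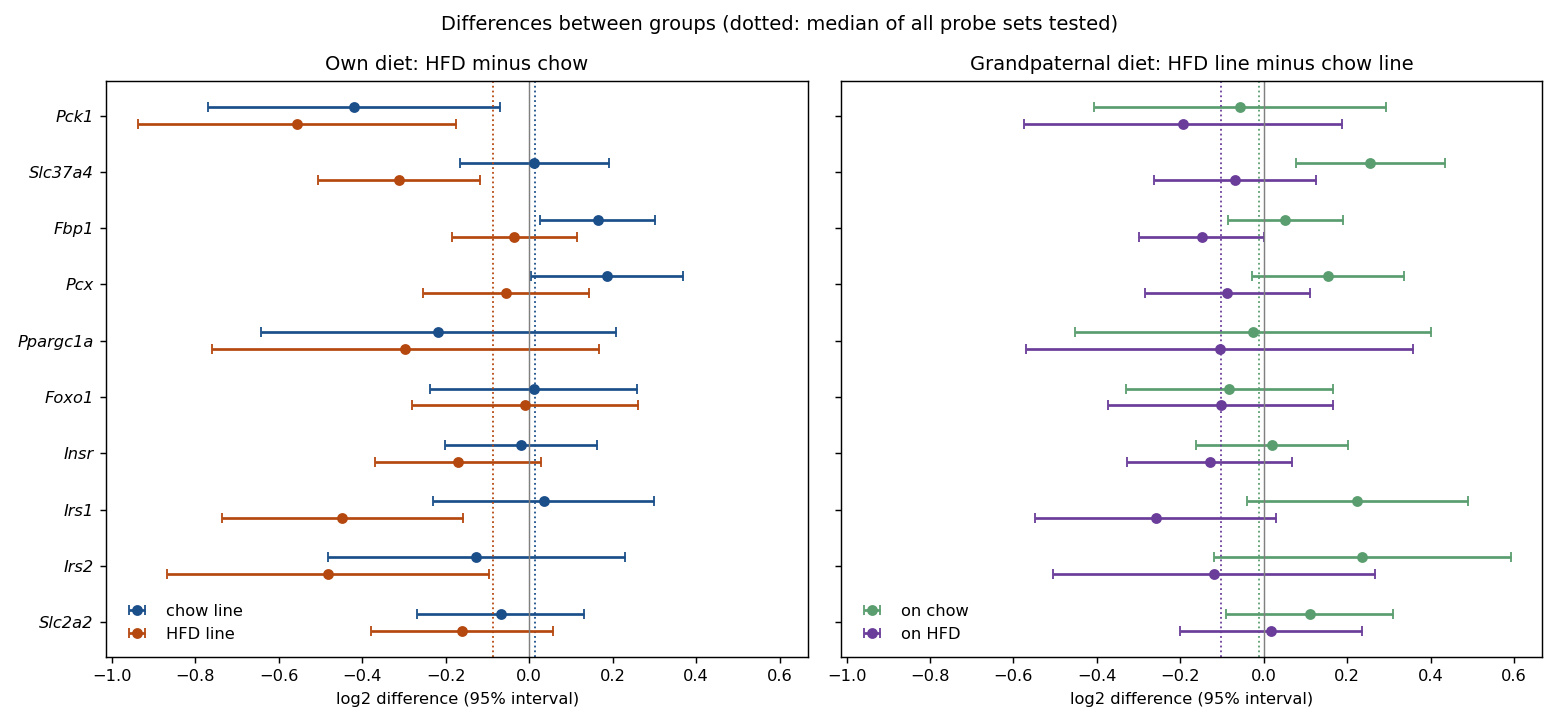
Log2 differences of the 10 genes with 95% intervals, own HFD minus chow in each line (left) and HFD line minus chow line on each diet (right). Dotted lines mark the median of all probe sets tested, -0.09 for own diet in the HFD line and -0.10 for grandpaternal diet on the HFD; Pck1, Slc37a4, Irs1 and Irs2 lie farthest below 0 in the HFD line.

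Counted together, all 10 genes had a difference below 0 on the HFD in the HFD line, against 71.6% of all probe sets, but only 7 did once arrays were centred or quantile normalized, with Fbp1, Pcx and Foxo1 then above 0. As deposited, 4 (Pck1, Slc37a4, Irs1 and Irs2) had an unadjusted p under 0.05, all lower, against 13.4% of all probe sets. None met the adjusted test there (0.752% of all probe sets did, and the smallest adjusted p of a member was 0.111). That background share rested on 118 probe sets, which became 65, 56, 69, 72 and 58 without array 37, 42, 24, 44 or 45 in turn. The ranges of 2 members, Slc37a4 and Irs1, did not overlap as deposited, against 2.71% of all probe sets with ranges apart in that direction. The members' median was -0.23, beside -0.09 for all probe sets, and after centring -0.11 beside 0.04.

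In the chow line 5 of 10 were below 0 (45.6% of all probe sets), with a median of -0.01 beside 0.01. None met the adjusted test (0.319% of all probe sets did), and 3, Pck1 lower and Fbp1 and Pcx higher, had an unadjusted p under 0.05, as did 8.80% of all probe sets. No member's ranges lay apart there, and those of 0.338% of all probe sets did. Averaged over lines, 7 of 10 were below 0 (64.0% of all probe sets), 4 with an unadjusted p under 0.05 and lower (10.6% of all probe sets), and the members' median was -0.13 beside -0.03.

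The interaction asked whether the response to the HFD differed between lines, and no member met its test (0% of all probe sets did). Without array 28 or array 22 the test called 57 and 48 probe sets, all lower, and 0 of the members in either fit. All 10 terms were below 0 as deposited, 7 after centring and 6 after quantile normalization, against 70.2% of all probe sets as deposited, with a median of -0.17 beside -0.10. An unadjusted p under 0.05 was found for 2 of them, Irs1 (-0.48 ± 0.19) and Slc37a4 (-0.32 ± 0.13), against 9.71% of all probe sets, and their adjusted p-values were 0.436 and 0.437. Fbp1 (-0.20 ± 0.10), Pcx (-0.24 ± 0.13) and Irs2 (-0.36 ± 0.26) followed in order of p, with adjusted p-values from 0.521 to 0.651. These 3 and the 2 before them were smaller in several alternatives. Irs1 read -0.35 with arrays centred and -0.32 after quantile normalization, and Slc37a4 -0.20 and -0.14. Fbp1 read -0.071 with arrays centred and -0.026 after quantile normalization, and Pcx -0.11 and -0.049. Irs2 read -0.23 with arrays centred, and -0.16 both without array 24 and without arrays 21, 22, 24 and 25. Without those 4 arrays Pcx was -0.15, Slc37a4 -0.21 and Irs1 -0.34. An unadjusted p under 0.05 was left for 1 member after centring, for 0 after quantile normalization and for 0 without arrays 21, 22, 24 and 25, where all 10 terms were again below 0. A different response of these genes in the HFD line was thus not shown by this test.

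Grandpaternal diet alone called no member, on chow, on the HFD or on average (0% of all probe sets in each; at most 1, 4 and 7 probe sets with 1 array left out). On chow 7 of 10 differences were above 0 and 3 below (53.8% of all probe sets were below 0), and 1 of them, Slc37a4 at 0.26 ± 0.09, had an unadjusted p under 0.05 (9.15% of all probe sets). Irs2 (0.24 ± 0.17), Irs1 (0.22 ± 0.13) and Pcx (0.15 ± 0.09) were the next in size, with adjusted p-values from 0.618 to 0.704. Without arrays 21, 22, 24 and 25 these were 0.18, 0.13 and 0.081, and with those arrays as an added term Irs2 and Pcx were 0.12 and 0.072. Irs1 was 0.10 with array weights and 0.14 without array 21. On the HFD 9 of 10 were below 0, where 81.0% of all probe sets were, and none had an unadjusted p under 0.05 (10.6% of all probe sets did with a lower and 0.344% with a higher value). Irs1 (-0.26 ± 0.14) and Fbp1 (-0.15 ± 0.07) had the smallest p-values there, with all 5 HFD-line arrays of each below the chow-line mean and adjusted p-values of 0.469 and 0.450. Centred arrays turned this around for most of the genes: 3 of 10 were then below 0, and Fbp1 read -0.02 and Irs1 -0.13. Averaged over own diets, the 10 differences ran from -0.13 to 0.09, with 6 of 10 below 0 (74.2% of all probe sets; 3 of 10 after centring). None had an unadjusted p under 0.05 (10.4% of all probe sets did with a lower and 0.567% with a higher value).

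The genes around these 10 were counted by role, from lists chosen with earlier results known and 1 probe set per gene. Their counts stand beside 1.63% of all probe sets called lower and 0.363% called higher in the averaged own-diet comparison, and no test of a list against those shares was made. Of 22 other gluconeogenic steps tested, 0 met the test of the averaged own-diet difference. Sds, serine dehydratase, had 1.05 ± 0.34 (adjusted p = 0.117) and Got1, the cytosolic aspartate aminotransferase that moves oxaloacetate carbon, -0.47 ± 0.15 (adjusted p = 0.109), the smallest p-values of that list. Its median of 0.03, beside -0.03 for all probe sets, did not share the members' direction. G6pc1, which catalyses the last step of glucose release, was not analysed here.

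Among 19 genes of glycolysis and glycogen, 1 rose and 0 fell on the HFD, with a list median of -0.07. Ppp1r3b, which directs protein phosphatase 1 to glycogen and favours its synthesis, had lowest, median and highest levels of 10.59, 10.85 and 11.37 in the chow line on chow and 11.07, 11.35 and 11.52 on the HFD. The HFD-line levels were 10.47, 10.94 and 11.30 on chow and 11.19, 11.39 and 11.53 on the HFD, so that the HFD arrays lay in the upper part of the chow range or above it. The averaged difference was 0.42 ± 0.10 (1.34-fold higher, adjusted p = 0.0282). This call was lost in 6 of the 24 fits without 1 array (27, 33, 40, 41, 42 or 44; adjusted p up to 0.0578).

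Between the receptor and AKT, 0 of 22 genes met the test, with a median of -0.06. Insrr, a receptor relative, had 0.47 ± 0.37 (adjusted p = 0.634) and Shc1, an adaptor, -0.12 ± 0.08 (adjusted p = 0.564). Of 23 genes that restrain insulin signalling, 2 fell and 0 rose, with a median of -0.09. Phlpp2, a phosphatase of AKT, fell by 0.39 ± 0.08 (adjusted p = 0.00854), from group means of 6.93 ± 0.25 to 6.64 ± 0.26 in the chow line and from 7.11 ± 0.12 to 6.63 ± 0.10 in the HFD line. Socs3, a cytokine-induced inhibitor of the receptor and its adaptors, fell by 0.37 ± 0.09 (adjusted p = 0.0361), from 7.73 ± 0.18 to 7.38 ± 0.14 and from 7.66 ± 0.37 to 7.27 ± 0.20. The Phlpp2 arrays did not overlap in the HFD line (6.54 to 6.80 on the HFD, 7.00 to 7.28 on chow), and its call held in every alternative that tested it, while that of Socs3 was lost after quantile normalization (adjusted p = 0.0730), after centring (0.0899), without arrays 21, 22, 24 and 25 (0.0996) and in 14 of 24 fits without 1 array (27, 28, 29, 22, 31, 33, 35, 37, 38, 41, 42, 24, 45 or 46).

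Of 26 regulators of the gluconeogenic genes, 1 rose and 0 fell on average over lines, with a median of -0.04. Nr0b2, the small heterodimer partner that represses gluconeogenic and bile acid genes, rose by 0.85 ± 0.18 (1.80-fold, adjusted p = 0.0109). Its lowest, median and highest levels were 7.70, 8.998 and 9.56 in the chow line on chow and 9.53, 10.02 and 10.59 on the HFD, and 8.99, 9.48 and 10.14 in the HFD line on chow against 9.75, 9.90 and 10.97 on the HFD. The chow-line ranges thus met only at their edges, while those of the HFD line overlapped more. The rise was 1.13 ± 0.25 in the chow line (adjusted p = 0.0354) and the difference 0.56 ± 0.27 in the HFD line (adjusted p = 0.309), and the interaction, -0.57 ± 0.37, did not meet its test (adjusted p = 0.610). It ran from -0.78 to -0.37 with 1 array left out, the smallest without array 25, and was -0.27 without arrays 21, 22, 24 and 25. The averaged call held in every alternative run, and that of the chow line was lost without arrays 21, 22, 24 and 25 (adjusted p = 0.0720) and in 9 of 24 fits without 1 array (21, 25, 26, 29, 31, 32, 33, 34 or 35).

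Of 13 other genes that insulin or FOXO1 is known to regulate, 2 fell and 0 rose, with a median of -0.06. Sesn1, a stress-inducible FOXO target that restrains growth signalling through mTORC1, fell by 0.43 ± 0.07 (1.34-fold lower, adjusted p = 0.000312). Its levels ran from 9.42 to 9.71 in the chow line on chow against 8.86 to 9.29 on the HFD, with no overlap, and from 9.33 to 9.68 in the HFD line on chow against 8.95 to 9.39 on the HFD, where the ranges overlapped. Its call held in every alternative run, on average and in the chow line (-0.49 ± 0.09, adjusted p = 0.00628). Insig1, which holds back sterol synthesis and is raised by insulin, fell by 0.44 ± 0.10 (adjusted p = 0.0209), a call lost without array 44 alone (adjusted p = 0.0509). In the interaction 0 of these genes in all 6 lists met the test. The smallest p-values there among the other gluconeogenic steps were those of Gk, glycerol kinase (-0.43 ± 0.16, adjusted p = 0.414), and Mdh1, cytosolic malate dehydrogenase (-0.28 ± 0.11, adjusted p = 0.441). Between the receptor and AKT they were those of the kinase gene Gsk3a (-0.43 ± 0.16, adjusted p = 0.402) and of Akt2, the main hepatic AKT (-0.17 ± 0.13, adjusted p = 0.652). Without arrays 21, 22, 24 and 25 they read -0.29 and -0.074.

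**Figure D3:**
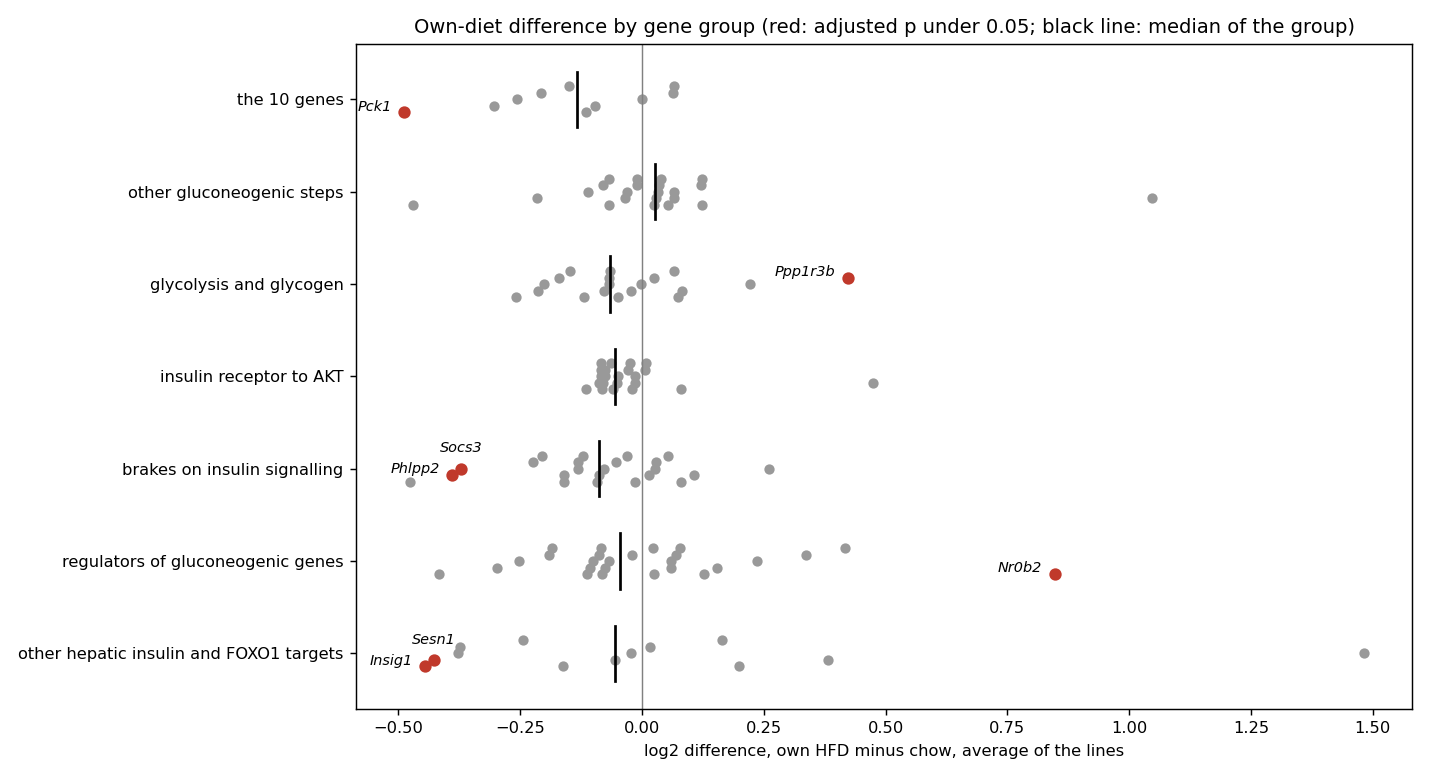
Own-diet difference (HFD minus chow, average of both lines, log2 scale) for the 10 genes and 6 lists of related genes; each point is a gene, red where its adjusted p was under 0.05, and black lines mark list medians. Pck1, Phlpp2, Socs3, Sesn1 and Insig1 lie below 0 in red, and Ppp1r3b and Nr0b2 above 0.

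Some markers of other cells also differed by own diet. All 10 Kupffer cell and macrophage markers were below 0 on average over lines, with a median of -0.38, and 3 of them fell: Marco by 1.16 (adjusted p = 6.93e-05), Cd5l by 0.70 (0.00731) and Vsig4 by 0.55 (0.0393), where 1.63% of all probe sets were called lower. Of the 4 bile duct markers tested, Epcam fell by 0.55 (adjusted p = 0.00330) and was called lower in the HFD line too (-0.76, adjusted p = 0.0139). The other 3 were not called on average over lines. There 2 of the 4 bile duct markers were below 0 and 2 above, with a list median of 0.003 beside -0.03 for all probe sets. Of 6 lymphocyte markers, 0 were called and 3 had an unadjusted p under 0.05, where 10.6% of all probe sets had such a p and were lower. Of the 6, 4 were below 0 and 2 above, with a list median of -0.18. The lymphocyte median was -0.29 in the chow line and -0.05 in the HFD line, beside 0.01 and -0.09 for all probe sets. The 10 Kupffer cell and macrophage markers summed to 5807 to 9728 in the chow line on chow and 3402 to 6085 on the HFD. In the HFD line these macrophage sums were 4719 to 8428 on chow and 4320 to 7016 on the HFD. The 9 hepatocyte markers summed to 56682 to 69379, 66713 to 70883, 61180 to 73330 and 60355 to 67174 in the same order, with 0 of 9 called in any comparison. In the chow line all 9 were above 0 on the HFD, with a median of 0.14, and in the HFD line all 9 were below 0, with a median of -0.06, where 0 of 9 were below 0 after centring. Quantile normalization left 5 of 9 below 0 in each line. Of the acinar genes of pancreas, a tissue beside the liver, Cpa1 fell by 1.43 (adjusted p = 0.0263) with own HFD, and the summed intensity of the 5 acinar markers ran from 2201 to 8212, 1423 to 4071, 2575 to 5277 and 264 to 3651 in that order. That sum was mostly Cpa1, with a median of 3495 units over the arrays against 18.8 to 54.7 for Prss1, Pnlip, Cela1 and Ctrb1. Of the 3 acinar markers bright enough to test, only Cpa1 was called, and Cela1 and Ctrb1 read -0.029 and 0.076. No marker of these lists was at 0. The part of other cells in the differences of Pck1, Slc37a4, Irs1 and Irs2 was not tested.

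How far the 10 genes varied together was read within groups, with each group's mean removed, as Pearson correlations over the 24 arrays; these arrays share brightness and handling, so no p is given. Brightness alone moved with several members: the correlation with the array median was 0.88 for Insr, 0.79 for Fbp1 and 0.72 for Foxo1, but 0.14 for Ppargc1a. After centring each array, Ppargc1a and Slc2a2 were high on the same arrays (r = 0.63, and 0.64 as deposited), as were Fbp1 and Pcx (0.57 and 0.67), Pck1 and Foxo1 (0.49 and 0.59) and Irs1 and Irs2 (0.44 and 0.59). Irs1 ran against Slc2a2 (-0.61 and -0.38) and Pcx against Ppargc1a (-0.53 and -0.43). Slc37a4 and Foxo1 changed sign with centring (-0.48 against 0.22). Pck1 showed little relation to Irs2 (-0.07 and 0.13). Arrays 21, 22, 24 and 25 entered these pairs, since within their groups they differed from the other arrays by 0.49 for Ppargc1a, 0.28 for Pck1, 0.21 for Slc2a2, -0.17 for Slc37a4, -0.29 for Pcx, -0.29 for Irs1 and -0.41 for Irs2, given with no test because these arrays were picked from the data. Over the other 20 arrays, a check added after the data were seen, the correlations with arrays centred were 0.46 for Ppargc1a with Slc2a2, 0.65 for Fbp1 with Pcx, 0.44 for Pck1 with Foxo1 and 0.27 for Irs1 with Irs2. Irs1 with Slc2a2 read -0.64, Pcx with Ppargc1a -0.26, Slc37a4 with Foxo1 -0.40 and Pck1 with Irs2 0.22. The strongest pairs were not all the same over the 20 arrays. Foxo1 with Slc2a2 read -0.62 there, against -0.14 over the 24 centred arrays, and Slc37a4 with Slc2a2 0.54 against 0.20.

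**Figure D4:**
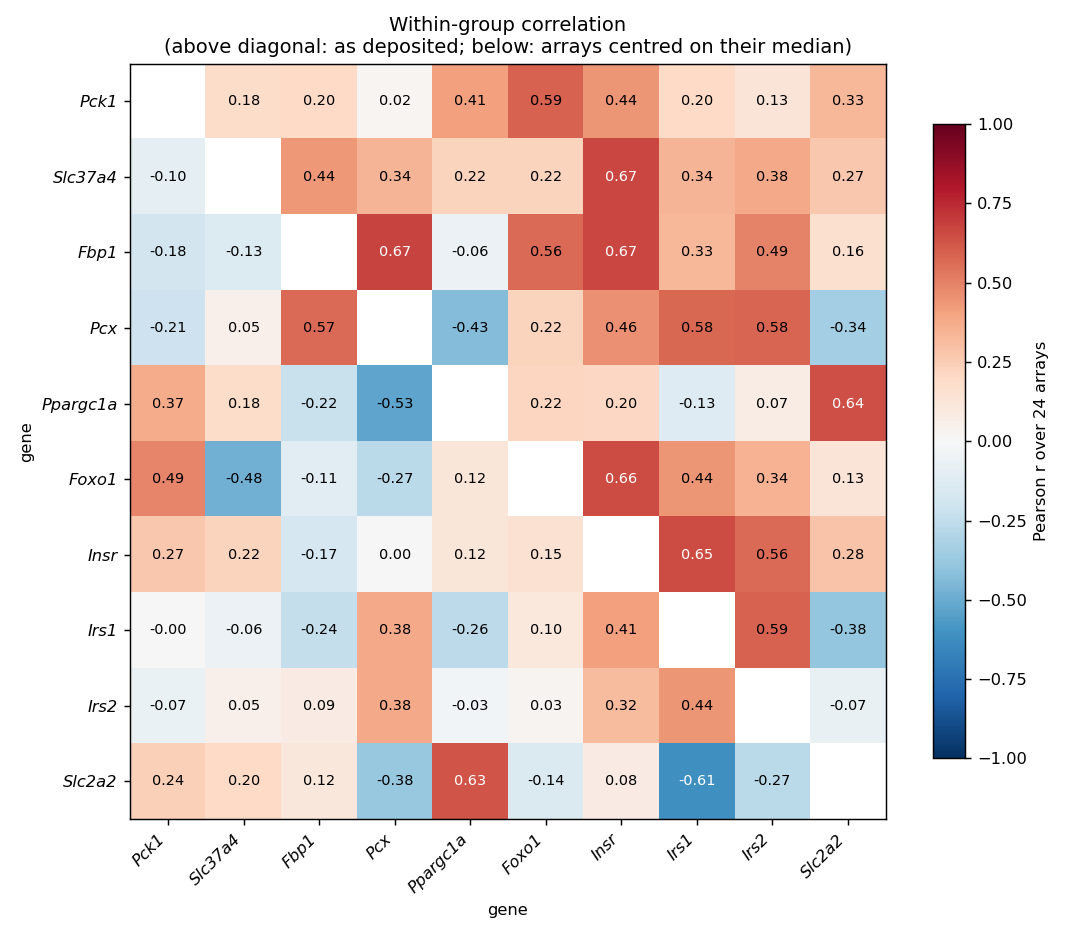
Pearson correlation between the 10 genes over 24 arrays after each group's mean was removed, as deposited above the diagonal and with arrays centred below it (colour scale from -1 to 1). Ppargc1a with Slc2a2 and Fbp1 with Pcx are the highest pairs below the diagonal, and Fbp1 with Insr is high above it (0.67) and below 0 under it (-0.17).

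The genes whose within-group pattern was most like each member, by the highest correlation over the 24 centred arrays among all named genes tested, were Zfp746 (r = 0.76), Eif4enif1 (0.75) and Elf2 (0.75) for Pck1, and Smoc1, Mis12 and Lig3 (0.79 each) for Slc37a4. For Pcx they were Rabac1 and 2 probe sets of Cox5a, a subunit of cytochrome c oxidase (0.89 each), and for Fbp1 Lifr (0.83), Serpinf1 (0.79) and the apolipoprotein gene Apoe (0.78). Slc2a2 was nearest to Gxylt1 (0.84), Ino80 (0.82) and Dzip1 (0.81), and Ppargc1a to Cfap96 (0.82), Lpp and C12h7orf50 (0.78 each). Foxo1 was nearest to Ntaq1, Alg12 (0.78 each) and the iron exporter gene Slc40a1 (0.76), and Insr to Polr2a (0.75), which encodes the large subunit of RNA polymerase II, Nfx1 (0.73) and Nceh1 (0.72). For Irs1 they were C2cd2 (0.76), Ubr4 (0.75) and Sympk (0.74), and for Irs2 Habp2 (0.80), Dpp7 (0.79) and Cadm3 (0.77). None of the 10 genes was among the nearest 3 of another. These likenesses were read with all 24 arrays only. They are the highest values out of all named genes tested. The 99th percentile of a member's correlations with all probe sets ran from 0.52 for Insr to 0.77 for Pcx. The lowest correlation of a member ran from -0.70 for Fbp1 to -0.89 for Pcx.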

How the data were processed

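Per the labels' protocols, total liver RNA was converted to biotin-labelled sense-strand cDNA and hybridised to Affymetrix whole-transcript rat arrays. The deposited values are linear probe set intensity, which the authors summarised with PLIER in Affymetrix Expression Console, per the submitters' processing notes (versions not given in the sources used here). No further normalization was applied to the deposited intensity, and log2(intensity + 16) of it was taken for the tests, which understates differences of dim probe sets. Of 20917 probe sets, 18197 carried 1 gene symbol, 960 several and 1760 none in the platform annotation, which can be old. RefSeq matched 18052 of those with 1. The 25% with the lowest mean (log2 level under 5.72) were left out, and 15687 were fitted with limma 3.58.1 in R 4.3.3 (1 mean per group, all 24 arrays, intensity trend), with 7 contrasts and Benjamini-Hochberg adjustment within each contrast at 0.05. The script was tested on simulated data. The number of arrays limits the precision. The members and the lists were chosen with earlier results of these data known. Named from the lists were genes that met the test, and otherwise the 2 with the smallest p by own diet and in the interaction. Alternatives were quantile normalization, centring, other filters and offsets, no trend, array weights, separate fits, arrays 21, 22, 24 and 25 left out or as a term, and each array left out in turn.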

Additional observations from a re-analysis of the deposited data

Results flagged for a closer look

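Of the 40 combinations of a gene and a group, 7 held an array far from the others of its group, by a rule that chance meets in about 1 in 20 groups. Pck1 was lowest on array 30 in the chow line on chow (12.03, the next 12.53) and on array 39 in the HFD line on chow (11.91, the next 12.47), the lower edge of both chow groups. Slc37a4 was lowest on array 21 in the chow line on chow (10.69, the next 11.08). Ppargc1a was highest on array 22 in the chow line on the HFD (8.30, the next 7.56) and lowest on array 37 in the HFD line on chow (6.86, the next 7.68). Array 24 of the HFD line on the HFD was lowest for both Irs1 (8.55, the next 8.86) and Irs2 (6.68, the next 7.54).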

How the results depend on the processing

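No paired analysis was possible because the labels give no litter or father by which animals could be paired. Of the 70 member differences, 27 changed sign under at least 1 alternative setting and 17 when 1 array was left out; the largest of the 27 was 0.15 in size. The count of members called by own diet on average over lines was 1 and became 0 with arrays centred. With 1 array left out it ran from 0 to 1, and so did the count in the HFD line. Slc37a4 in the chow line read -0.023 after quantile normalization, -0.0089 with array weights, -0.087 without arrays 21, 22, 24 and 25, -0.0078 with those arrays as a term and -0.059 to 0.047 with 1 array left out. Irs1 in the chow line read -0.034 with array weights, -0.030 without the 4 arrays and -0.049 to 0.088 with 1 array left out. In the HFD line, Fbp1 read 0.064 after quantile normalization and 0.086 after centring, and Pcx read 0.057 and 0.067, 0.014 without the 4 arrays, 0.0023 with them as a term and -0.11 to 0.014 with 1 array left out. In the interaction, Pck1 read 0.084 after quantile normalization and 0.048 with array weights, and Akt2 0.00037 after quantile normalization. The cause of these changes was not tested. Over all probe sets, own diet on average over lines called 57 higher and 255 lower, against 167 and 260 after quantile normalization, 159 and 209 after centring and 102 and 479 with array weights. In the HFD line it called 15 and 103, against 34 and 56, 32 and 39, and 22 and 164; in the chow line 12 and 38, against 24 and 65, 22 and 68, and 28 and 67. Without the 4 arrays the HFD line called 10 and 67. With 1 array left out these totals ran from 214 to 470 on average over lines (470 without array 21), 56 to 148 in the HFD line, 34 to 56 in the chow line and 0 to 57 in the interaction. Averaged grandpaternal diet called 0, against 54 with array weights, 4 without the dimmer 50% and 2 without the 4 arrays or with them as a term. Centring moved the median of all probe sets from -0.10 to 0.03 for grandpaternal diet on the HFD, from -0.09 to 0.04 for own diet in the HFD line and from -0.10 to 0.03 for the interaction. Without array 21 Got1 met the test by own diet (adjusted p = 0.0438), without array 26 Sds did (0.0461), and Sesn1 did in the HFD line with array weights (0.0387) or without array 47 (0.0410).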
